A study of Caenorhabditis elegans with 6 samples.

Results

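The LINE and RTE retrotransposon copies of the deposited table are 581 repeat rows, chosen by name alone: each name starts with LINE or RTE and ends in a copy number. They are 484 LINE copies of 9 families, LINE2A_CE to LINE2H_CE with LINE2C1_CE, and 97 copies of the RTE1 family. The table holds 53925 single repeat copies among its 99774 rows. A row is 1 annotated copy in the genome, and a family level is the sum of its copies.

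LINEs and RTE elements are retrotransposons without long terminal repeats. An active element is transcribed into RNA that encodes a reverse transcriptase and an endonuclease, and the RNA is copied back into DNA at a nick in the target site. Most copies of such elements in animal genomes are truncated at the 5′ end or otherwise incomplete, and they are often transcribed as part of a neighbouring or enclosing gene. In Caenorhabditis elegans, repeats are kept silent by methylation of histone H3 lysine 9 and by small RNA pathways.

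RNA was taken from whole L1 larvae that had hatched overnight without food in M9 buffer at 20 °C. The mutant group, 3 libraries, was strain BCN6101, described as EU548 with pdaf-21::mCherry and carrying div-1(or148), an allele of a gene for one part of DNA polymerase alpha-primase, which primes DNA synthesis. The wild-type group, 3 libraries, was strain BCN1050 with pdaf-21::mCherry in the N2 background, so both groups carried the mCherry reporter driven by the daf-21 promoter. The labels call the libraries of a group biological replicates and name 1 strain per group, so a difference of div-1 genotype and any other difference between the 2 strains cannot be told apart. The series title concerns impaired replication and derepressed chromatin, and the comparison asks here whether LINE and RTE transcripts differed between the strains.

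Library totals ran from 25051167 to 27632878 counts, and the members held 3754, 2572 and 3746 counts in mutant libraries 1, 2 and 3 and 2187, 2416 and 2224 in the wild type. CPM below means counts per 1e6 gene counts after TMM scaling. The div-1 row stood at 35.0 ± 8.44 CPM (SD, n = 3) in the mutant against 32.6 ± 9.58 in the wild type (log2 fold change 0.10, edgeR adjusted p = 0.915), a level that does not check a point allele. Of 24 marker genes for larval tissues and other stages, 21 could be tested and 0 passed edgeR's adjusted threshold, with 1 at an unadjusted p under 0.05. That gene was the yolk gene vit-6, at 3.10 CPM in the mutant against 1.82 in the wild type (log2 fold change 0.77, edgeR adjusted p = 0.451). Markers of muscle, intestine and neurons were abundant in every library. Of the epidermal markers, dpy-7 ran from 65.2 to 204 CPM and rol-6 from 0.451 to 4.63 across the libraries. The epidermal gene bli-1 was too low to test. The sperm gene msp-3 was at 0 in all 6, while the yolk gene vit-2 and the embryo gene pie-1 had counts in every library. Inserts of 18 to 36 bp are hard to assign among copies of a family, so the count of a copy that shares sequence with others is uncertain. In whole larvae, a change in the number of cells that make a transcript and a change in its amount per cell cannot be told apart.

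Few copies carried the counts. Of the 581 members, 282 had no count in any of the 6 libraries, which is 48.5%, beside 60.1% of all repeat copies. Another 299 had at least 1 count, 81 had a count in every library, and 45 averaged 10 counts or more. Pooled over the libraries the members held 16899 counts, of which 5 copies carried 50% and 57 copies carried 90%. Those 5 were RTE1_60, RTE1_67, LINE2H_CE_27, LINE2F_CE_16 and RTE1_36. RTE1_60 alone held 33.4% of the pooled count, and the RTE1 family held 45.6%.

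The number of copies with at least 1 count was 196, 160 and 201 in mutant libraries 1, 2 and 3 and 148, 162 and 160 in the wild type. Mutant library 2 lay within the wild-type range and the other mutant libraries above it. Counts in the mutant group only were found for 72 copies, with 162 counts in all and no more than 8 in any copy. Counts in the wild type only were found for 37 copies, with 60 counts in all and no more than 5 in any copy. At so few counts, absence from a group was not separable from low depth.

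The families differed in how strongly 1 copy dominated. The number of copies needed for 50% of the count was similar in all 6 libraries. The share of the leading copy was lower in every mutant library than in every wild-type library in LINE2D_CE and LINE2E_CE. It was higher in LINE2A_CE and LINE2C_CE and overlapped in the other families, and these differences were not tested. The leading copy is the highest of each library and was not always the same copy. In LINE2A_CE it was LINE2A_CE_23 in wild-type libraries 1 and 2 and LINE2A_CE_31 in the others. In LINE2E_CE it was LINE2E_CE_2 in mutant library 1 and LINE2E_CE_38 in the others. A single copy held at least 50% of the count in every library in 4 families, LINE2D_CE, LINE2F_CE, LINE2H_CE and RTE1. In RTE1 the share of RTE1_60 lay between 72.4% and 74.4% across libraries, and 3 copies of 97 held 90% of the family count in each library. In LINE2D_CE the share of LINE2D_CE_22 was 70%, 79% and 80% in the mutant libraries and 87%, 90% and 86% in the wild type. That of LINE2H_CE_27 in LINE2H_CE ranged from 63.6% to 84.7%. LINE2F_CE_16 held 54.8% to 64.7% of its family. LINE2E_CE needed 1 to 2 copies to reach 50% of its count, and LINE2A_CE, LINE2B_CE and LINE2C1_CE needed 2 to 3.

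Counts were most spread out in LINE2G_CE, the largest family with 116 copies, and in LINE2C_CE with 63. LINE2G_CE needed 3 to 5 copies to reach 50% of its count, and LINE2C_CE needed 4 to 6. The leading copy held 19.2% to 32.3% of LINE2G_CE. In LINE2C_CE it held 25.1%, 23.0% and 26.8% in the mutant libraries and 19.2%, 13.0% and 17.9% in the wild type. Over all 60 pairs of a family and a library the median number of copies needed for 50% was 2. After each library was thinned to the lowest count of its family, the median was again 2, with the same number in 52 of the 60 pairs and a change of no more than 1 in the rest.

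**Figure D1:**
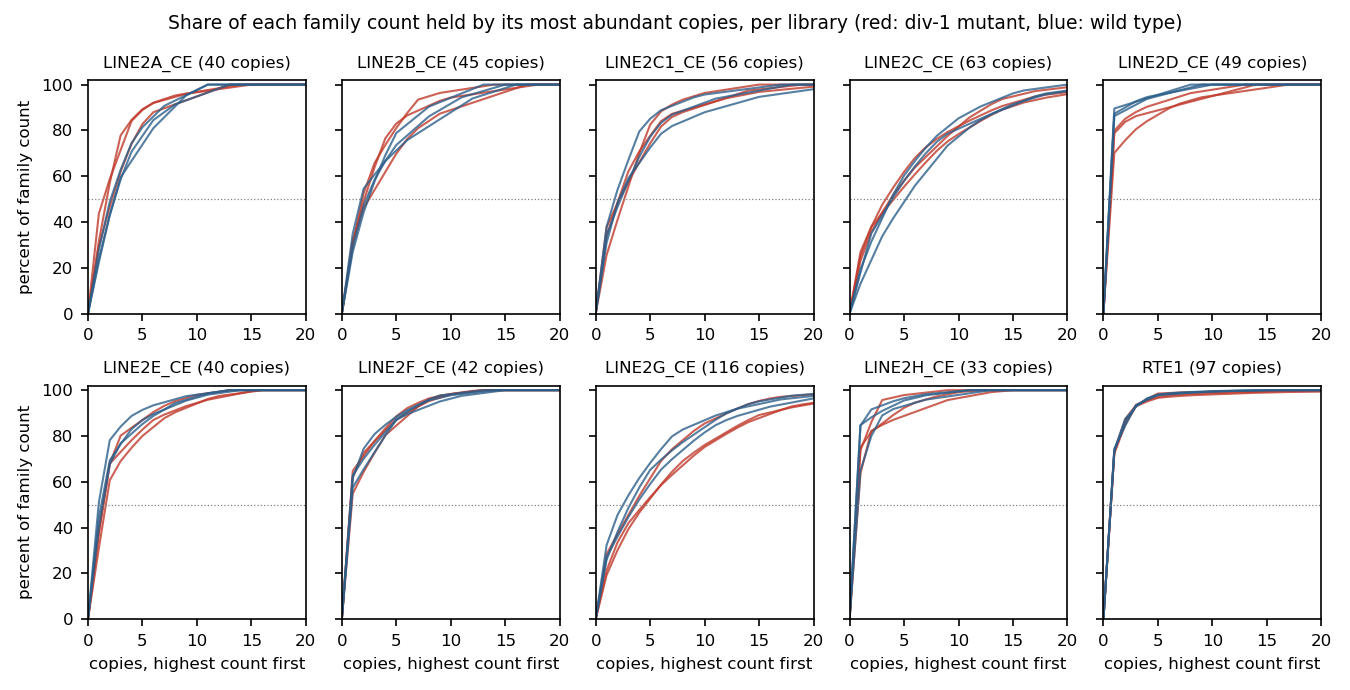
Cumulative percent of each family count (y axis) held by its copies, ordered from the highest count down (x axis, number of copies, first 20 shown), with 1 line per library (red, div-1 mutant; blue, wild type) and a dotted line at 50%. RTE1, LINE2D_CE, LINE2F_CE and LINE2H_CE pass 50% with their first copy in all 6 libraries, while LINE2C_CE needs 4 to 6 copies.

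In the plot of cumulative shares, the RTE1 lines of all libraries lie on top of each other. The lines of LINE2G_CE and LINE2C_CE rise slowly. Neither group of libraries stays on one side of the other there, though the mutant lines start higher at the first copy of LINE2C_CE.

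The copies lay on all 6 chromosomes. Gene rows of the table follow the gene order of the WBcel235 annotation (Ensembl release 115), with 99.3% of 43515 neighbouring pairs in order, and 580 of the 581 members could be placed between gene rows in this way. By this order 76 members were on chromosome I, 69 on II, 53 on III, 125 on IV, 146 on V and 111 on X. RTE1 had 27 of its 97 copies on X, where RTE1_60 also lies. For 64 members, an annotated gene covered the whole stretch between the starts of the gene rows on either side. They held 11.8% of the member count. A copy in a gene that ends before the next gene start is missed, so both values are lower limits. A count was seen in 56.3% of these 64 and in 50.9% of the others, some of which may also lie within genes.

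RTE1 was the family with the highest count, and its level was higher in each mutant library than in each wild-type library. RTE1 held 1512, 1285 and 1729 counts in mutant libraries 1, 2 and 3 and 960, 1149 and 1079 in the wild type. As CPM this was 57.4 ± 6.73 (SD, n = 3) in the mutant against 42.2 ± 2.50 in the wild type. The log2 fold change was 0.44, with a 95% interval of 0.13 to 0.76, and it did not pass the threshold of 0.05 (edgeR adjusted p over repeat families = 0.168).

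RTE1_60 set most of that family value. It held 1109, 935 and 1251 counts in the mutant libraries and 708, 855 and 791 in the wild type, so that the groups did not overlap. Its log2 fold change was 0.42, with a 95% interval of 0.11 to 0.74 (edgeR adjusted p over all rows = 0.286). RTE1_60 carried 73.2% of the family count and 69.9% of the difference in CPM between the groups. Without it, the other 96 copies gave a log2 fold change of 0.50, with a 95% interval of 0.14 to 0.86 (edgeR adjusted p = 0.212).

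Only 4 further RTE1 copies were abundant enough to test. RTE1_67, on chromosome II between math-41 and math-40, stood at 7.58, 6.84 and 8.28 CPM in the mutant libraries and 5.37, 3.97 and 5.72 in the wild type (log2 fold change 0.59, edgeR adjusted p = 0.331). RTE1_91, on chromosome III, held 33, 34 and 35 counts against 15, 24 and 22 (log2 fold change 0.68, edgeR adjusted p = 0.429). Both were higher in every mutant library by CPM. RTE1_36 overlapped between the groups with a log2 fold change of 0.41, and RTE1_62 had one of -0.26.

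Among LINE families the values for LINE2A_CE, LINE2C_CE and LINE2G_CE were higher in each mutant library than in each wild-type library. LINE2A_CE held 126, 58 and 149 counts in mutant libraries 1, 2 and 3 and 42, 43 and 58 in the wild type. That is 4.17 ± 1.64 CPM (SD, n = 3) against 1.90 ± 0.381, a log2 fold change of 1.14 with a 95% interval of 0.34 to 1.93 (edgeR adjusted p = 0.168). LINE2C_CE held 383, 174 and 362 counts against 156, 154 and 140. The means were 11.5 ± 3.75 CPM and 5.97 ± 0.384, and the log2 fold change was 0.95 with a 95% interval of 0.34 to 1.56 (edgeR adjusted p = 0.168). In both families mutant library 2 stood close to the wild type, and the other mutant libraries stood apart from it.

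LINE2G_CE held 451, 275 and 359 counts in the mutant libraries and 198, 247 and 222 in the wild type. Its means were 13.7 ± 2.40 and 8.83 ± 0.663 CPM, with a log2 fold change of 0.63 and a 95% interval of 0.21 to 1.05 (edgeR adjusted p = 0.168). In this family all mutant libraries were separated from the wild type, with library 2 the nearest.

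The other 6 LINE families overlapped between the groups. LINE2B_CE had a log2 fold change of 0.76 (95% interval 0.05 to 1.47) and LINE2F_CE one of 0.57 (0.02 to 1.12), each with an edgeR adjusted p of 0.268. In both, mutant libraries 1 and 3 were above the wild type. LINE2D_CE stood at 0.39 and LINE2C1_CE at 0.29, each with an edgeR adjusted p of 0.531. LINE2H_CE stood at 0.16 (95% interval -0.29 to 0.60, edgeR adjusted p = 0.682) and LINE2E_CE at 0.14 (-0.29 to 0.57, edgeR adjusted p = 0.721). The intervals of these last 4 families include 0 and do not show equal levels.

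**Figure D2:**
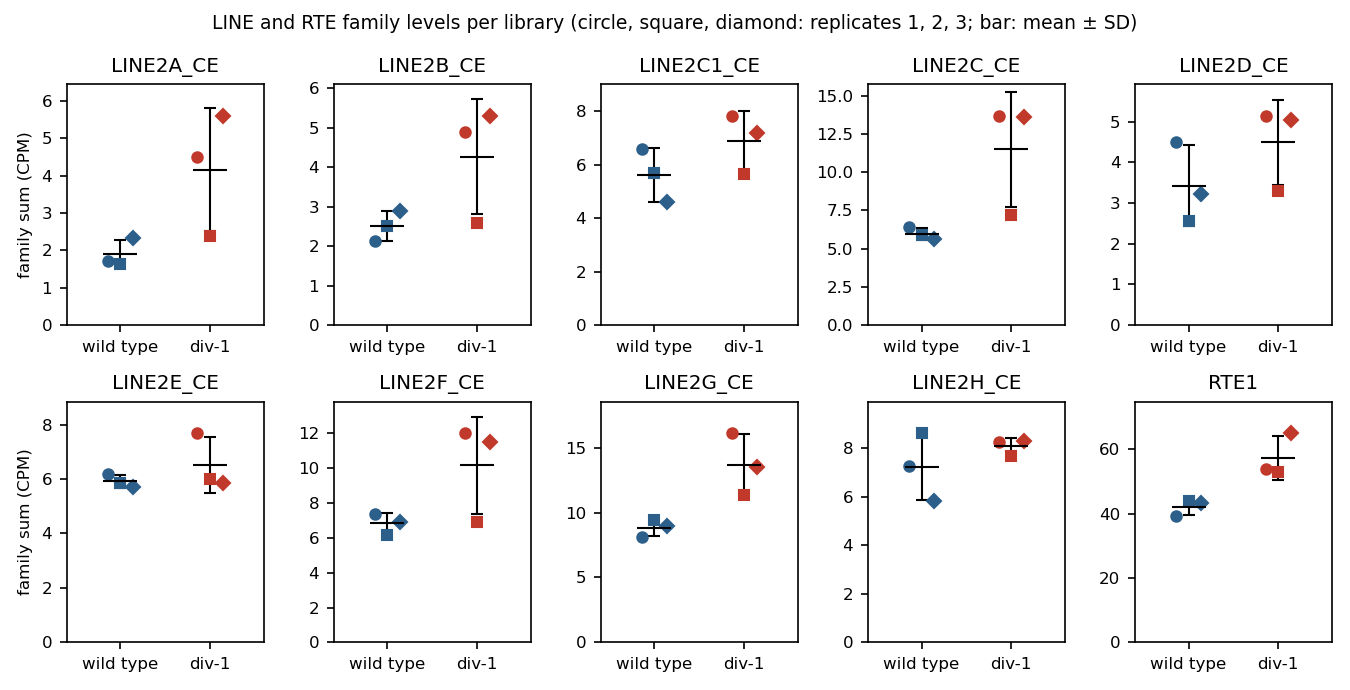
Family sums in CPM (y axis, a separate scale for each family, from 0) in the 3 wild-type (blue) and 3 div-1 mutant (red) libraries; circle, square and diamond are replicates 1, 2 and 3, and bars give the mean and SD. Mutant replicate 2 is the lowest mutant library in 9 of the 10 families, and LINE2A_CE, LINE2C_CE, LINE2G_CE and RTE1 do not overlap between the groups.

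As a set, 0 of the 10 families passed the threshold with edgeR, beside 0.645% of the 155 repeat families tested, where Mariner5_CE was the only one called (log2 fold change 1.76, edgeR adjusted p = 0.00104). DESeq2 also called 0 of the 10, beside 1.29% of all families tested, and limma voom called 0, beside 0.645%. At an unadjusted edgeR p under 0.05 there were 6 of 10, all higher in the mutant, beside 17.4% of all families tested. Every mutant library lay above every wild-type library in 4 of 10, beside 24.5% of all families tested. All 10 log2 fold changes were above 0, as were 130 of the 155 families (83.9%). The median was 0.51 in the 10 families and 0.21 in the 155. Without mutant library 2, 2 of the 10 families passed, LINE2C_CE (log2 fold change 1.19, edgeR adjusted p = 0.0169) and LINE2A_CE (1.40, edgeR adjusted p = 0.0417), beside 4.43% of the 158 families then tested.

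The family values moved in both directions when the leading copy was left out. Without its most abundant copy, LINE2D_CE moved from 0.39 to 1.35 (95% interval 0.37 to 2.33) and LINE2H_CE from 0.16 to 0.66 (-0.07 to 1.39). LINE2E_CE moved from 0.14 to 0.45 (-0.05 to 0.96). LINE2A_CE moved the other way, from 1.14 to 0.83 (0.04 to 1.62), and LINE2C_CE from 0.95 to 0.79 (0.19 to 1.39). In this setting edgeR called 0 of the 10 families, with adjusted p between 0.212 and 0.420, beside 1.41% of all families tested. There were 7 at an unadjusted p under 0.05, beside 14.1% of all families that could be tested so.

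**Figure D3:**
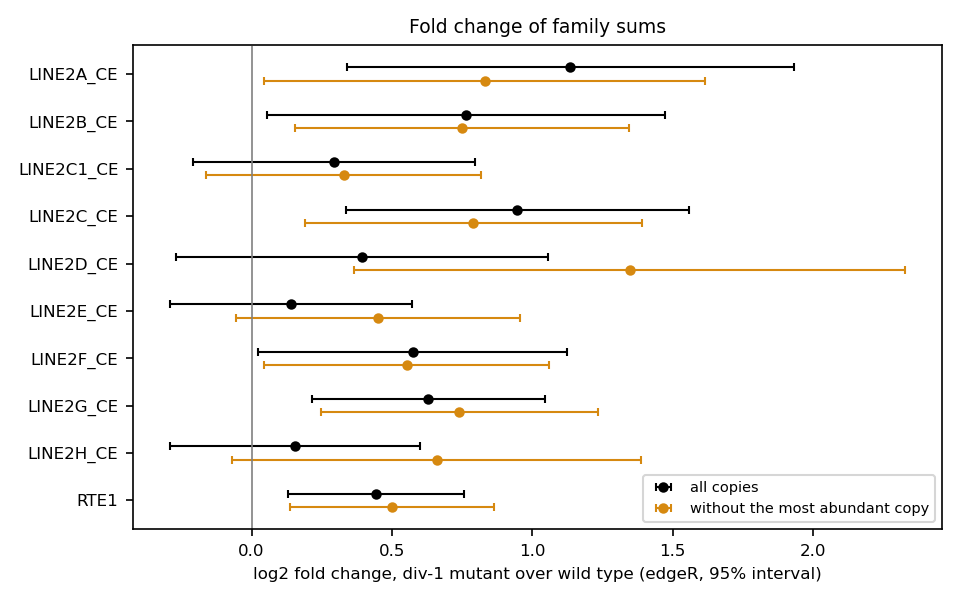
Log2 fold change of each family sum, div-1 mutant over wild type (x axis), with its 95% interval from edgeR, for all copies (black) and without the most abundant copy of the family (orange). The point of LINE2D_CE moves from 0.39 to 1.35 and that of LINE2A_CE from 1.14 to 0.83, and all points are above 0.

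In the plot of family fold changes, LINE2D_CE is the family in which the 2 values lie farthest apart. The copy left out there, LINE2D_CE_22 on chromosome X, held 101, 63 and 107 counts in the mutant libraries and 96, 60 and 69 in the wild type. Its log2 fold change was 0.19 (edgeR adjusted p = 0.853), and it carried 80.7% of the family count. The copy that led LINE2H_CE, LINE2H_CE_27 on chromosome IV, held 147, 137 and 165 counts against 150, 191 and 94. Its log2 fold change was -0.01 with a 95% interval of -0.61 to 0.59, and its sign changed with the scaling: it was 0.04 with upper-quartile factors and 0.08 with library size alone.

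Of single copies, 43 of 581 passed the filter on low counts, and they held 85.7% of the member count. A copy can pass this filter through the group in which it is higher, so counts over the 43 describe these copies and not all members. The 538 that were not tested include 256 with a count, and together they held 660, 307 and 579 counts in the mutant libraries and 250, 305 and 312 in the wild type. By raw count, mutant libraries 1 and 3 were above every wild-type library and mutant library 2 was not. These counts were not scaled, and mutant library 2 had the lowest gene count of the 6 libraries. Divided by the TMM-scaled gene counts, mutant library 2 lay narrowly above every wild-type library. Divided by gene counts without TMM factors, it lay narrowly below wild-type library 3, so the order depends on the scaling.

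None of the tested copies passed the threshold. edgeR called 0 of 43, beside 0.948% of the 17401 rows tested that were called higher. limma voom also called 0, beside 0.902% of rows called higher, and DESeq2 called 2, LINE2C_CE_8 and LINE2A_CE_31, beside 3.24% of rows called higher. At an unadjusted edgeR p under 0.05 there were 12 higher and 0 lower, beside 8.41% of all rows that were higher. Every mutant library lay above every wild-type library for 13 of 43, beside 10.3% of all rows, and below for 1, LINE2E_CE_38, beside 7.52%. The log2 fold change was above 0 for 38 of the 43 (88.4%), with a median of 0.54. Over all rows tested these values were 46.9% and -0.02, and over the 2334 rows whose level lay in the interquartile range of these copies they were 67.6% and 0.24. Of those 2334 rows, 345 were higher at an unadjusted edgeR p under 0.05, and 413 were higher in every mutant library than in every wild-type library. For the 61 LTR copies tested, the same counts were 14 and 13. With no filter, 4 of the 299 copies then tested passed (LINE2C_CE_8, LINE2A_CE_31, LINE2C_CE_7 and LINE2A_CE_15), all higher. Of all 48254 rows then tested, 725 (1.5%) were called higher, so 4 of 299 is not an excess over that share.

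LINE2A_CE_31, on chromosome IV, held 55, 17 and 47 counts in the mutant libraries and 7, 9 and 13 in the wild type. All mutant libraries were above all wild-type libraries, with library 2 nearest to them. The means were 1.48 ± 0.681 and 0.385 ± 0.124 CPM (SD, n = 3), and the log2 fold change was 1.94 with a 95% interval of 0.86 to 3.01 (edgeR adjusted p = 0.127; DESeq2 adjusted p = 0.0145).

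LINE2C_CE_8, on chromosome I, held 96, 40 and 97 counts in the mutant libraries and 30, 20 and 25 in the wild type. Its means were 2.91 ± 1.10 and 1.00 ± 0.233 CPM, and the log2 fold change was 1.54 with a 95% interval of 0.70 to 2.39 (edgeR adjusted p = 0.119; DESeq2 adjusted p = 0.00801). It lies next to Y52B11A.14 in the table, as does LINE2C_CE_7, which held 23, 22 and 40 counts against 10, 12 and 1 (log2 fold change 1.81, edgeR adjusted p = 0.297). LINE2C_CE_7 falls within the annotated span of Y52B11A.19, a protein-coding gene whose row held 115, 57 and 119 counts against 45, 41 and 26 (log2 fold change 1.30, edgeR adjusted p = 0.151). The 3 rows shared the direction, and whether reads of the gene count for the copies was not tested. LINE2A_CE_15, on chromosome X, was too sparse for the main filter and held 16, 9 and 38 counts against 3, 5 and 7.

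Leading copies of other families showed smaller or opposite differences. LINE2F_CE_16, on chromosome X beside inx-2, held 208, 92 and 198 counts in the mutant libraries and 113, 93 and 106 in the wild type (log2 fold change 0.59, 95% interval -0.08 to 1.26, edgeR adjusted p = 0.536). Libraries 1 and 3 of the mutant were again high and library 2 was level with the wild type. LINE2E_CE_38, on chromosome IV beside F33D4.4, held 63, 54 and 48 counts against 77, 68 and 57, which gave -0.36 on the log2 scale (edgeR adjusted p = 0.648). By CPM all its mutant libraries were below all wild-type libraries, while the whole LINE2E_CE family had a log2 fold change of 0.14. The separation of LINE2E_CE_38 depended on the scaling. With library size alone mutant library 1 lay above wild-type library 3, and with upper-quartile factors mutant library 2 did. LINE2B_CE_5 had a log2 fold change of 0.81, LINE2G_CE_32 of 0.31 and LINE2C1_CE_15 of 0.23, and these 3 copies overlapped between the groups.

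**Figure D4:**
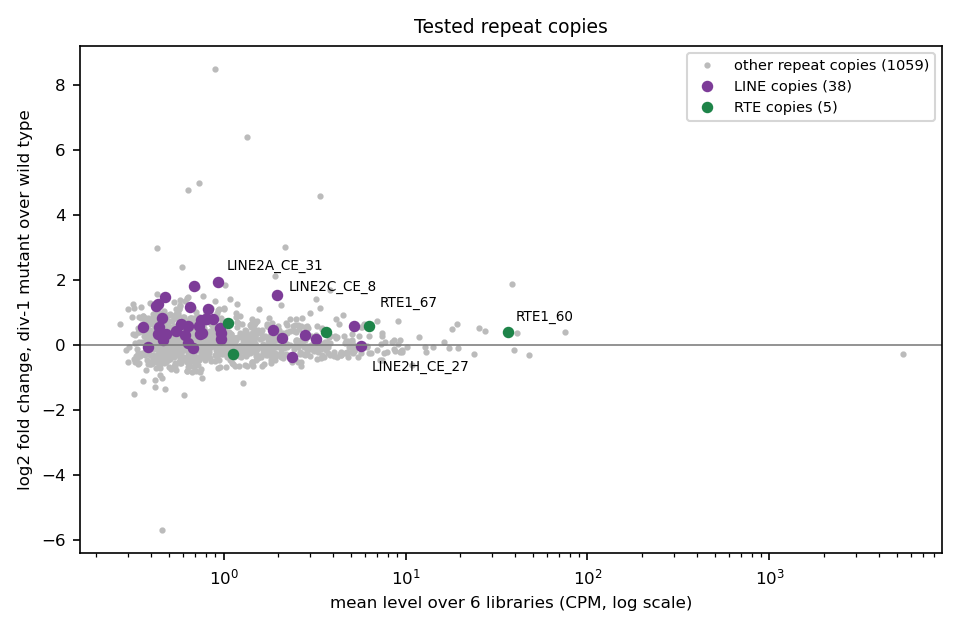
Log2 fold change, div-1 mutant over wild type (y axis), against the mean level over 6 libraries (x axis, CPM, log scale) for the 1102 repeat copies tested: 38 LINE copies (purple), 5 RTE1 copies (green) and 1059 others (grey). Of the LINE and RTE1 points, 38 of 43 lie above 0; RTE1_60 is the most abundant, and LINE2A_CE_31 at 1.94 has the largest value.

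In the plot of copies by abundance, LINE points lie on both sides of 0 and mostly above it, and the RTE1 points include the most abundant member. The other repeat copies tested were above 0 in 58.0% of cases, with a median of 0.08. For LTR copies 48 of 61 were above 0 with a median of 0.34, and for Tc and Mariner copies 35 of 59 with a median of 0.09.

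The most abundant member could not be told apart from the gene row beside it. RTE1_60 lies next to C33E10.4, a row for a pseudogene on chromosome X that held 1109, 934 and 1250 counts in the mutant libraries and 708, 854 and 791 in the wild type. The largest difference between the 2 rows in any library was 0.117%, and whether the same reads count for both was not tested. Among gene rows within 10% of a copy in each library, this was the single match for copies with 50 counts or more in each library.

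A looser search, chosen after the values were seen, looked at gene rows up to 5 rows away in the table whose pooled count lay within 20% of the copy. It found a match for 11 of the 45 copies with a mean of 10 counts or more, and 9 of the 11 were pseudogene rows. In 8 the pooled counts were within 5%, and all 8 were pseudogenes. The 11 copies held 44.4% of the member count. LINE2C_CE_11 and ZK488.3 each held 76 counts over the 6 libraries, and LINE2G_CE_49 and Y113G7A.2 each held 124. LINE2E_CE_2 held 292 counts and H31G24.2 held 291, and LINE2C1_CE_15 held 327 and F25B4.3 held 339. Without the 11 copies, LINE2E_CE had a log2 fold change of -0.01 in place of 0.14, and RTE1 one of 0.53 in place of 0.44.

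**Figure D5:**
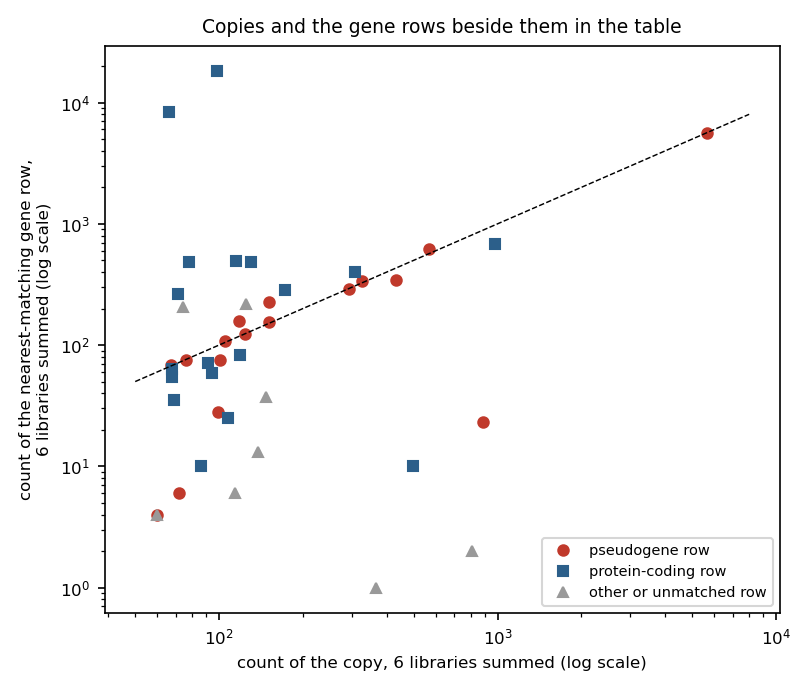
Count of each copy with a mean of 10 or more, 6 libraries summed (x axis, log scale), against the count of the gene row within 5 table rows that comes nearest to it (y axis, log scale); colour and shape give the type of that gene, and the dashed line marks equal counts. Copies whose nearest-matching row holds no count are not drawn. RTE1_60 and the pseudogene row C33E10.4 lie on the line at 5649 and 5646 counts, and 8 copies lie within 5% of it, all with pseudogene rows.

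In the plot of copies against gene rows, the abundant copies LINE2H_CE_27, LINE2F_CE_16 and LINE2D_CE_22 lie far below the line. Their nearest-matching rows held 23, 2 and 10 counts, against 884, 810 and 496 in the copies.

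Summed by class, LINE stood at 80.2, 53.0 and 76.0 CPM in the mutant libraries and 50.3, 48.3 and 46.1 in the wild type. The groups did not overlap, and the ratio of geometric means was 1.42. RTE stood at 54.1, 52.9 and 65.1 CPM against 39.3, 43.8 and 43.5, a ratio of 1.35. For each class an exact two-sided permutation of 3 against 3 libraries gave p = 0.1, which is the smallest it can give. LTR copies had a ratio of 1.36 and Tc and Mariner copies one of 1.38 in the same libraries. The Tc and Mariner class, at 250 CPM in the mutant against 182 in the wild type, includes the called family Mariner5_CE. That family alone stood at 63.5 against 18.7 CPM, so the class ratio rests in large part on 1 family. The LINE count per LTR count was 0.407, 0.403 and 0.436 in the mutant against 0.419, 0.409 and 0.362 in the wild type, and the groups overlapped. The RTE count per LTR count and the LINE count per Tc and Mariner count overlapped between the groups as well, the latter with Mariner5_CE included. These ratios thus differed by less than the spread between libraries.

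As a share of all repeat counts, the members took 1.67%, 1.16% and 2.11% in mutant libraries 1, 2 and 3 and 1.14%, 1.00% and 1.02% in the wild type. The log2 ratio was 0.60, with p = 0.1 in the exact permutation test, again the smallest possible. The rRNA repeat rows are part of the denominator, and within each group their share ran in the reverse order of the member share. They took 61.1%, 69.9% and 52.0% of the repeat counts in the mutant libraries and 66.1%, 71.8% and 70.2% in the wild type. Without them the share was 4.29%, 3.86% and 4.40% against 3.37%, 3.54% and 3.42%, a log2 ratio of 0.28, and the groups did not overlap. Mutant library 2, the lowest of the mutant group in 9 of 10 families, also had the highest rRNA share of that group; the part of rRNA in the library difference was not tested.

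Genes that silence repeats mostly did not pass the test. A list of 45 genes of small RNA, Argonaute, chromatin and RNA editing pathways had 44 in the table, all tested. It was chosen with earlier results of these data known, so its calls do not test whether such genes changed more often than others. edgeR called 1 higher, beside 0.948% of all rows, and 1 lower, beside 0.0172% of all rows, and 42 did not pass. The median log2 fold change was -0.05, and 14 of 44 were above 0. mut-16, the scaffold of the mutator foci in which secondary small RNAs are made, held 233, 113 and 174 counts in the mutant libraries and 1304, 1357 and 1254 in the wild type (log2 fold change -2.99, edgeR adjusted p = 0.00160). Its groups were far apart, and its level and the div-1 allele cannot be told apart as sources of a difference between these strains. sago-2, an Argonaute of secondary small RNAs, held 107, 81 and 93 counts against 26, 18 and 29 (log2 fold change 1.87, edgeR adjusted p = 0.0216). The sago-2 call was lost when mutant library 2 or 3, or wild-type library 1 or 2, was left out, with edgeR adjusted p of 0.0543, 0.117, 0.0990 and 0.0825. The H3K9 methyltransferase genes met-2 and set-25 had log2 fold changes of 0.02 and -0.04, and the piRNA Argonaute gene prg-1 had one of 0.16, with edgeR adjusted p between 0.778 and 0.968.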

How the data were processed

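The authors deposited raw counts, whole numbers without normalisation, in 1 table with a row for each gene, repeat copy or reporter part and 3 mutant and 3 wild-type columns. Per the submitters' processing notes, TopHat2 2.1.0, featureCounts 1.5.0 and DESeq2 1.8.1 were used; not given in the sources used here are their options, the genome build, the annotation, the use of strand and the treatment of reads with several matches. Per the labels' protocols, a small RNA kit was used and inserts of 18 to 36 bp were kept.

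Groups came from the sample titles. Because a read may count for a gene and a repeat that overlap, library sizes and TMM factors were taken from gene rows alone. Copies were tested with edgeR 4.0.16 (R 4.3.3; default filter by group, robust quasi-likelihood fit on group, two-sided) with all rows of the table and Benjamini-Hochberg adjustment over the 17401 tested. Family sums of all 179 families were tested together with the gene rows and adjusted over the 155 repeat families tested. Intervals are 95% intervals from the fit. The threshold was an adjusted p of 0.05. Class sums and shares were tested by permuting the 3 against 3 libraries exactly. DESeq2 1.42.0 and limma 3.58.1 (voom) were alternatives, beside other scalings, filters, a replicate block and leaving out each library. Scripts were tested on simulated data. The common biological coefficient of variation was 0.224, and libraries of a group differed beyond sampling noise (chi-square per degree of freedom 19.8 to 123), so none was merged.

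Every family is named, with the most abundant copy of each over all 6 libraries, and of the genes div-1, mut-16 and silencing genes past the threshold; other copies and genes named were chosen after their values were seen. The members and lists were chosen with earlier results of these data known. The gene hrde-1 of the silencing list was not matched to a row. No sequence of the copies is given here.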

Additional observations from a re-analysis of the deposited data

How the results depend on the processing

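The count of families past the threshold was 0 in every alternative except without mutant replicate 2, where it was 2; leaving out 1 library gave 0 to 2. The count of copies was 0 except with no filter, where it was 4 of 299, and with DESeq2, where it was 2 of 43. Leaving out 1 library gave 0. The silencing list had 2 genes past the threshold (mut-16 and sago-2), but 1 under the replicate block and 1 to 2 when 1 library was left out; sago-2 was the gene lost, with adjusted p from 0.0543 to 0.117. The log2 ratio of the share of repeat counts was 0.277 without the most abundant repeat family and also without the rRNA families (the latter added after seeing the data), and 0.40 to 0.83 when 1 library was left out; the removal of rRNA counts from the denominator makes this difference.

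LINE2E_CE changed sign to -0.00597 without copies matched to a neighbouring gene row. LINE2H_CE_27, at -0.01, changed sign to 0.035 with upper-quartile factors, 0.083 with library size alone, 0.032 under the replicate block and 0.036 with limma voom, and lay between -0.24 and 0.19 when 1 library was left out. div-1 lay between -0.11 and 0.35 when 1 library was left out. The cause was not tested. The replicate block called 0 copies, beside 0.379% of all rows called higher, and 0 families, beside 0.645% of all families. At an unadjusted p under 0.05 it had 8 of 43 copies, beside 7.59% of all rows, and 5 of 10 families, beside 11.0% of all families. The numbers do not pair the libraries. Correlations were taken over the tested gene rows, on deviations of log2 CPM from the mean of the group. On these deviations, same-numbered libraries had correlations of -0.25, 0.58 and -0.40, and 1 of 3 mutant libraries correlated best with its own number. Depth limits the copies: 538 of 581 were too sparse to test.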
